A study of Mus musculus with 6 samples.

Results

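The 34 genes described here act at the passage of a cell from G1 into S phase and in the copying of its DNA. They were listed by symbol, by a rule that uses no measured values, although the list was chosen with earlier results of these data known. They were found as the non-control probes of 6 mouse arrays that carry those symbols. All 34 were on the arrays, among 37323 genes in all. All 34 also passed the filter on dim probes, which kept 19500 genes for testing. Ccne2 lay well above background on 5 of the 6 arrays, and the other 33 genes did so on all 6.

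Bone marrow of C57BL/6J mice aged 6 to 8 weeks was the source of the monocytes, which were purified magnetically and cultured for 60 h. Every culture received 20 ng/mL of M-CSF, the growth factor under which monocytes mature into macrophages. The 3 control samples received no other agent, and the 3 IFN-beta samples received 100 U of mouse IFN-beta, a type I interferon, beside the M-CSF. RNA of each sample was labelled with Cy3 and hybridised to its own single-colour Agilent array, and the comparison asks what type I interferon does to gene expression while monocytes mature. The labels name no genetic change in these mice. Whether each replicate is a mouse or a culture of its own is not stated, so the p-values measure only the spread between these samples, which may be technical.

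DNA replication is prepared in G1, when Cdc6 and Cdt1 load the ring of Mcm2 to Mcm7 onto origins, and it starts when kinases and Cdc45, the GINS proteins and Mcm10 turn that ring into an active helicase. Cyclin D and cyclin E kinases free the E2F factors from the retinoblastoma protein, and E2F then raises the transcription of replication genes and of its own family. M-CSF is a mitogen for precursors of macrophages, and type I interferon is known to slow the division of many cell types.

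The start of many replication genes carries E2F sites, so the promoters of the 34 genes were searched for them. Promoter windows of 300 bases (250 before and 50 after each start, RefSeq, GRCm38.p6) were held for 28 of the 34 genes, and 3 of the 28 had several windows. Ccnd1, Ccne2, Gins1, Gins2, Mcm4 and Pole had no entry. The E2F letters searched on both strands were TTTCCCGC, TTTGGCGC, TTTCGCGC and TTTGCCGC, and matches were allowed to overlap. They were in 11 of 28 genes (39.3%), against 704 of 27025 genes (2.6%) with windows of the same length. The 7 stretches below are those in which a match lies before the start, printed on the gene's own strand with the matches in capitals. They cover chr11:98907983-98908050 (Cdc6, plus strand), chr8:75109326-75109397 (Mcm5, plus), chr1:128359715-128359845 (Mcm6, minus), chr5:138172011-138172078 (Mcm7, minus), chrX:93632256-93632323 (Pola1, minus), chr5:151651209-151651248 (Rfc3, minus) and chr17:56304098-56304165 (the second window of Uhrf1, plus).
Cdc6: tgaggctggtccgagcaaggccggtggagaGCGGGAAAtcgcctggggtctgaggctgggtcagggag
Mcm5: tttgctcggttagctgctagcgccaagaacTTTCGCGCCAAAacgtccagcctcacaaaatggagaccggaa
Mcm6: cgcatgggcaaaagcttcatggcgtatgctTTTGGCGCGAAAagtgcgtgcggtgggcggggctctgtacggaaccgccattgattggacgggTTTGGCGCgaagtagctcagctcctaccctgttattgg
Mcm7: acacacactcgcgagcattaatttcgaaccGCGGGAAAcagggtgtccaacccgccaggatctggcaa
Pola1: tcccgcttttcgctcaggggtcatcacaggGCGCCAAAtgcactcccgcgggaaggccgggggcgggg
Rfc3: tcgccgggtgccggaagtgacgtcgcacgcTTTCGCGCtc
Uhrf1: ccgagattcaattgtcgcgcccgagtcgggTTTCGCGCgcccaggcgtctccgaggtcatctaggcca

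In Mcm5 and Mcm6 a pair of matches on opposite strands overlap, which gives the longer runs of capitals, and Mcm6 holds a further match nearer the start, from position -47 to -40. Mcm3 (19 to 26 and 38 to 45 after the start), Cdt1 (32 to 39), Pold1 and E2f2 (both 39 to 46) held matches only after the start. Mcm7 and Rfc3 held another after it. The CCAAT box, searched as CCAAT, was in 16 of 28 genes (57.1%), against 41.1% of all genes. TTTGAA, the cell cycle homology region found in genes of G2 and M phase, was in 3 of 28 (10.7%, against 20.2%). The interferon-stimulated response element, searched as GAAA, any 2 bases and GAAA again, was in 0 of 28 genes, against 1079 of 27025 (3.99%). A match is a description of letters and shows no binding, and a window with no match says only that these letters are not in it.

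**Figure D1:**
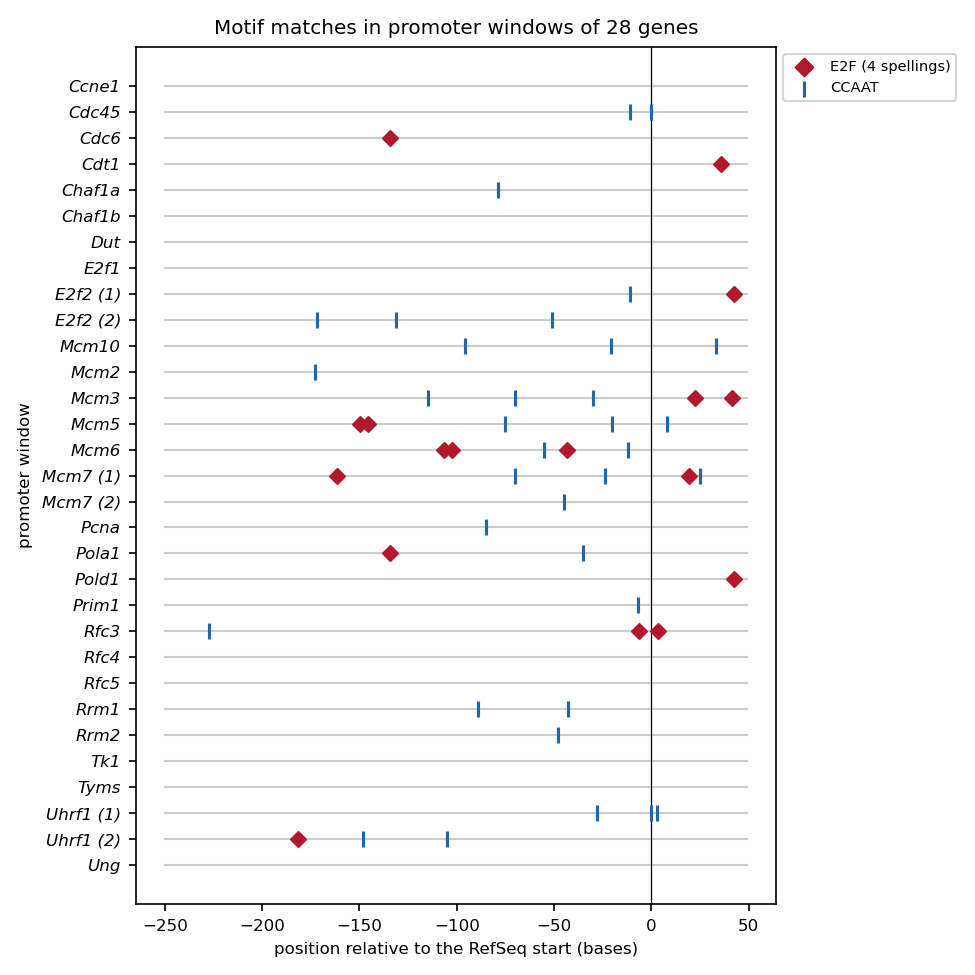
Positions of E2F matches (red diamonds) and CCAAT boxes (blue bars) in the 31 promoter windows of 28 genes, with the distance from the RefSeq start in bases on the horizontal axis and 1 line per window. E2F matches lie on 11 of the 31 lines, and the lines of Mcm2, Mcm10, Cdc45, Ccne1 and Dut carry none.

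The arrays did not form clean groups. Signals were brighter on controls 1 and 2, whose 75th percentiles of the processed signal were 550 and 528, than on control 3 (305) or the IFN-beta arrays (236 to 244), and the share of probes well above background was 63.9% and 63.3%, 52.5%, and 49.0% to 52.5%. All 14 monocyte and macrophage markers lay well above background on every array. The 20 fibroblast markers did so on controls 1 and 2, where their summed level was 9.25 and 9.47 (log2), against 0.84 on control 3, with 12 of the 20 dim there, and 1.87 to 2.09 on the IFN-beta arrays, with 10 of the 20 dim on all of them. Controls 1 and 2 were close to each other. Single-spot differences between them had an SD of 0.065 per array, against 0.061 and 0.057 between repeated spots within each. Between IFN-beta arrays the SD was 0.138 to 0.142, but repeated spots within IFN-beta 1, 2 and 3 also spread more (0.104, 0.075 and 0.134). Differences between controls 1 and 2 exceeded their repeat spread only slightly. Results are therefore also given with both averaged as 1 array, an alternative chosen after seeing the data. IFN-beta 1 shared slide 1 with the 3 controls, while IFN-beta 2 and 3 were alone on slide 2. Because of these differences IFN-beta was compared with the 3 controls together, with controls 1 and 2, and with control 3. These comparisons share the IFN-beta arrays and, in part, the controls, and are no independent evidence of each other.

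Levels below are log2 of the processed signal minus the 75th percentile of the array, and serve to compare arrays for 1 gene, not genes with each other. On this scale every one of the 34 replication genes was higher on control 3 than on controls 1 and 2, by a median of 0.71 (range 0.46 to 1.05). Over all 19500 genes, 73.9% were higher on control 3 than on both other controls and 19.9% lower, with a median difference of 0.35. With IFN-beta the median level of the 34 genes was 3.12, 3.06 and 3.11 on the 3 arrays, against 2.34 and 2.36 on controls 1 and 2 and 3.14 on control 3. IFN-beta arrays therefore stood above controls 1 and 2 and level with control 3 for the list as a whole. In bulk RNA, fewer cells that express a gene and less of its RNA per cell cannot be told apart.

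**Figure D2:**
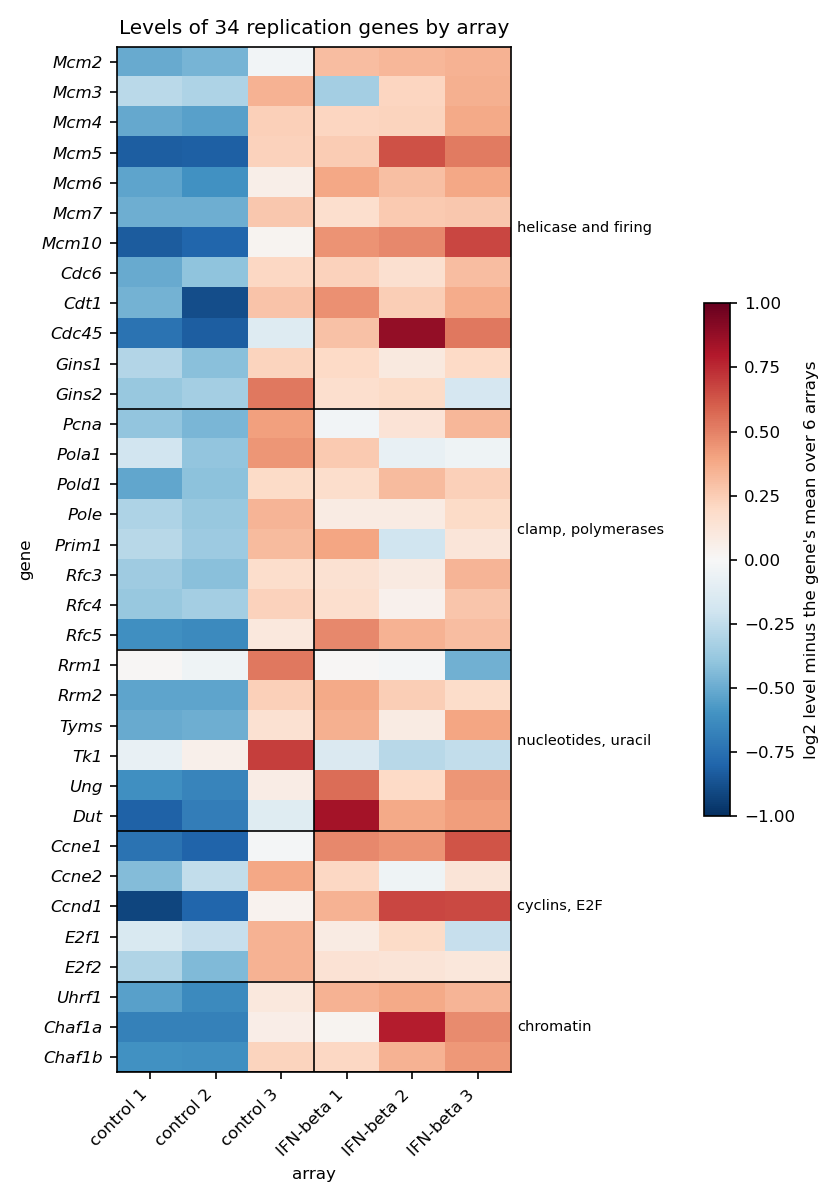
Level of each of the 34 genes on each array as the difference from the gene's mean over the 6 arrays (log2, red above and blue below), in order of role. Controls 1 and 2 are blue for nearly all genes, and control 3 is red or near white like the IFN-beta arrays, except that Tk1 and Rrm1 are red on control 3 only.

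Set against the 3 controls together, 6 of the 34 genes rose with IFN-beta and none fell, at an adjusted p under 0.05 (limma, Benjamini-Hochberg over 19500 genes, 3 arrays per group). The 6 were Mcm2, Mcm10 and Cdc45 of the helicase, Dut of nucleotide supply, and the cyclins Ccne1 and Ccnd1. That is 17.6% of the list, beside 11.8% of all genes higher and 8.04% lower. The median log2 fold change of the list was 0.52, beside 0.10 for all genes, and 32 of the 34 values were above 0. For 15 of the 34 the unadjusted p was under 0.05. The calls rested on the make-up of the groups: 0 members were called with control 1, control 2, IFN-beta 2 or IFN-beta 3 left out, 1 (Cdc45) without IFN-beta 1, 27 without control 3, and 0 with controls 1 and 2 averaged as 1 array (5.99% of all genes higher and 4.23% lower) or with the slide as a block (1039 genes called in all).

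Against controls 1 and 2 alone, 27 of the 34 genes rose and none fell (79.4% of the list, beside 33.1% of all genes higher and 15.1% lower, limma). The median log2 fold change was 0.75, beside 0.22 for all genes. Mcm3, Gins2, Pola1, Prim1, Rrm1, Tk1 and E2f1 were not called. Left out singly, control 1 or control 2 brought the count to 16 or 17, and averaging both as 1 array gave 16 (13.1% of all genes higher and 8.59% lower), without Cdc6, Gins1, Pcna, Tyms, Ccne2, E2f2, Pold1, Pole, Rfc3, Rfc4 and Chaf1a among the calls. The signal percentile and the fibroblast markers moved with this contrast, and their part in it was not tested.

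Against control 3, a lone array assumed in the fit to vary like the IFN-beta arrays, none of the 34 genes rose and Tk1 fell (limma; 5.22% of all genes higher and 4.33% lower). The unadjusted p was under 0.05 for 5 genes. The median log2 fold change of the list was 0.04, beside -0.10 for all genes, with 20 values above 0 and 14 below. Here the fibroblast markers were low on both sides. Relative to the median of all genes, the list stood at 0.42 against the 3 controls, 0.53 against controls 1 and 2 and 0.14 against control 3. These distances were 0.20, 0.32 and -0.19 without the filter on dim probes and 0.22, 0.31 and -0.01 with normexp, so the one against control 3 has no settled direction.

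**Figure D3:**
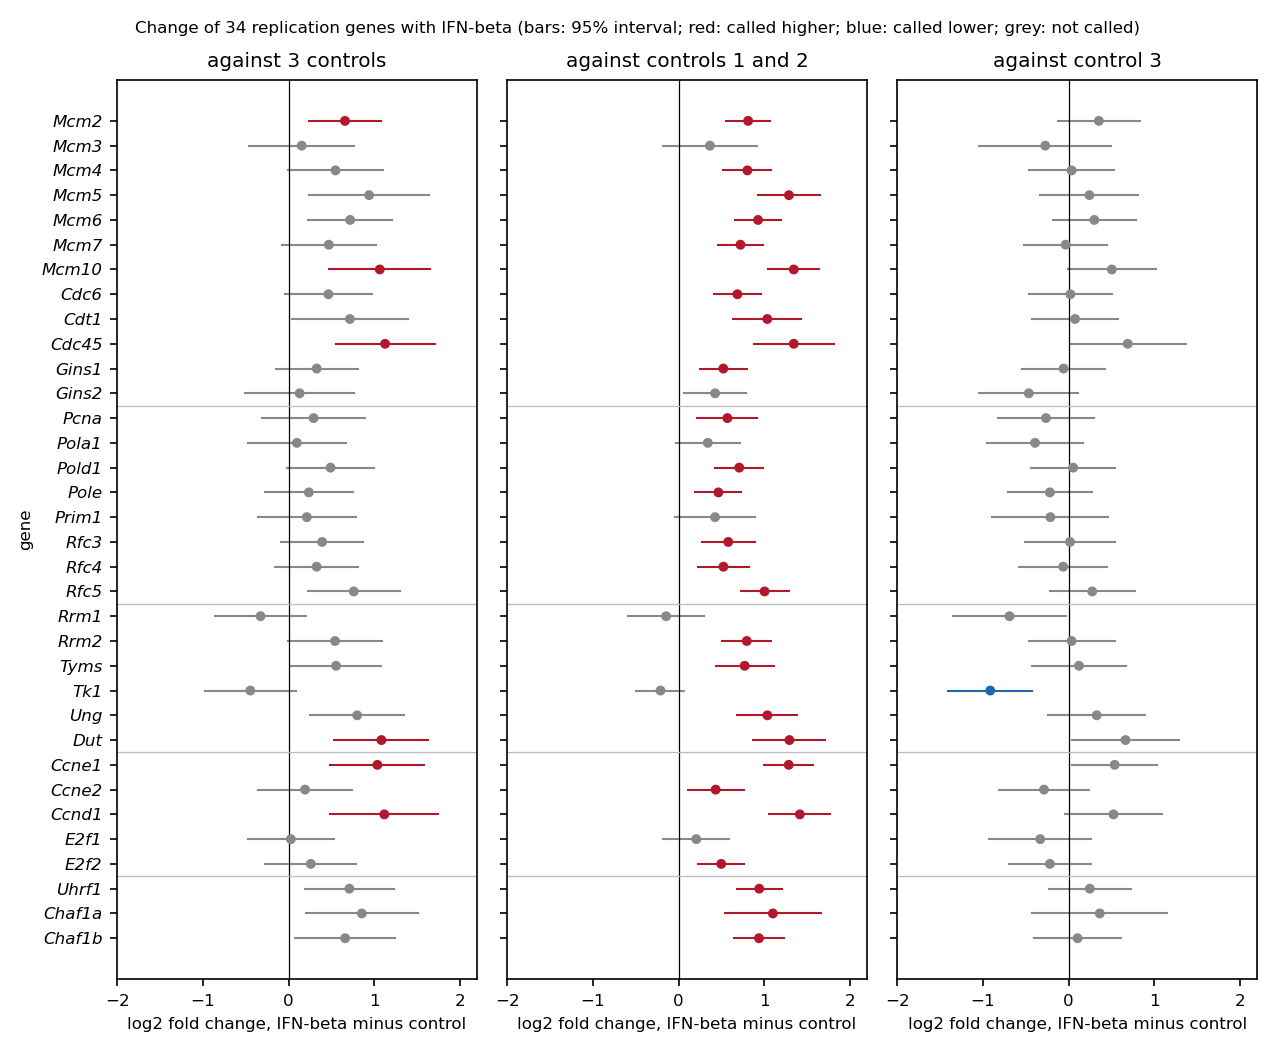
Log2 fold change of each gene, IFN-beta minus control, with its 95% interval from limma, against the 3 controls, controls 1 and 2, and control 3 (panels from left to right). Red marks genes called higher (6, 27 and 0), blue genes called lower (0, 0 and 1) and grey the rest, and in the right panel the values straddle 0.

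The helicase and origin firing genes were all on the positive side against the 3 controls and against controls 1 and 2. Beside 11.8% and 33.1% of all genes, 3 of these 12 rose against the 3 controls and 10 against controls 1 and 2. Their medians were 0.60 and 0.81. None was called against control 3 (limma; 1 at an unadjusted p under 0.05), where the median was 0.06 and 8 of 12 values were above 0. Mcm10, which helps to activate the helicase at the origin, read 1.76, 1.80 and 2.62 on controls 1, 2 and 3 and, with IFN-beta, 3.04, 3.07 and 3.26 (probe at chr2:4911845-4911904, mm9). All 3 IFN-beta arrays lay above control 3, which lay above the other controls. The difference was 1.07 ± 0.25 (SE) against the 3 controls, or 2.09-fold, with an adjusted p of 0.025 in limma, 1.35 against controls 1 and 2 (adjusted p = 0.00058) and 0.50 against control 3 (adjusted p = 0.21).

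Cdc45, the subunit that joins the Mcm ring and the GINS proteins in the active helicase, read -2.09, -2.18 and -1.48 on the controls and -1.07, -0.48 and -0.83 with IFN-beta (chr16:18793399-18794880, mm9). Its groups did not overlap either. It was 1.13 ± 0.25 higher against the 3 controls (2.18-fold, adjusted p = 0.019, limma), 1.35 against controls 1 and 2 (adjusted p = 0.0030) and 0.69 against control 3 (adjusted p = 0.19). Mcm2, a subunit of the ring, read 1.06, 1.10 and 1.54 on the controls and 1.87, 1.89 and 1.91 with IFN-beta (chr6:88833619-88833678, mm9). The IFN-beta arrays were within 0.04 of each other and above every control. Its difference of 0.66 ± 0.18 (1.58-fold, adjusted p = 0.042, limma) was the smallest of the 6 called, and was 0.81 against controls 1 and 2 and 0.35 against control 3.

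The rest of the ring did not pass the test against the 3 controls. Mcm6 read 5.01, 4.93 and 5.60 on the controls and 5.92, 5.84 and 5.93 with IFN-beta, with no overlap of the groups. Its log2 fold change was 0.72 ± 0.21, and the adjusted p of 0.0505 lay just past the threshold (limma). Mcm5, at 2.37, 2.38 and 3.42 against 3.45, 3.83 and 3.72, had the widest gap between control 3 and the other controls of the 34 genes (1.05), and gave 0.94 ± 0.30 (adjusted p = 0.065, limma). Mcm4 and Mcm7 had IFN-beta levels of 4.04 to 4.21 and 3.92 to 4.03, with control 3 inside that range for each (4.07 and 4.02). Against control 3 they stood at 0.04 and -0.03. All 4 were called against controls 1 and 2, with log2 fold changes of 0.93 (Mcm6), 1.29 (Mcm5), 0.80 (Mcm4) and 0.72 (Mcm7). On the probes shown, Mcm3 alone of the ring was not called there. Its probe read 4.07, 4.02 and 4.68 on the controls and 3.99, 4.55 and 4.69 with IFN-beta. On that probe IFN-beta 1 lay below all 3 controls. The 3 other tested probes of Mcm3 gave 0.73, 1.04 and 0.89 against controls 1 and 2. The place of Mcm3 as the exception therefore rests on the probe shown.

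Both loading factors rose against controls 1 and 2. Cdc6, an ATPase that loads it, read -0.22, -0.12 and 0.49 on the controls and 0.51, 0.45 and 0.59 with IFN-beta. Control 3 lay among the IFN-beta arrays, and the log2 fold change was 0.69 against controls 1 and 2 (adjusted p = 0.0050, limma) and 0.02 against control 3. Cdt1, its partner in loading, read 4.37, 3.95 and 5.12 and then 5.30, 5.09 and 5.21, with values of 1.04 and 0.08. Gins1 and Gins2 are subunits of the GINS complex. Gins1 was called against controls 1 and 2 (0.52) and Gins2 was not (0.43, adjusted p = 0.058, limma). Gins2 read 1.60, 1.64 and 2.51 on the controls and 2.15, 2.17 and 1.81 with IFN-beta, so control 3 was above all 3 IFN-beta arrays on the probe shown. Its other tested probe read 0.47 on control 3 and 0.25, 0.66 and 0.66 with IFN-beta, so that order rests on the probe shown. That probe gave 0.55 against controls 1 and 2.

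Among the sliding clamp, its loader and the polymerases, 0 of 8 genes were called against the 3 controls (limma; 1 at an unadjusted p under 0.05), 6 against controls 1 and 2 and 0 against control 3 (0 unadjusted). Of all genes, 11.8% were called higher against the 3 controls and 33.1% against controls 1 and 2. The medians of these 8 genes were 0.31, 0.55 and -0.14. Pcna, the clamp that tethers polymerases to DNA, read 5.89, 5.83 and 6.69 on the controls and 6.25, 6.42 and 6.62 with IFN-beta. The IFN-beta arrays lay between controls 1 and 2 on one side and control 3 on the other. Its log2 fold change was 0.57 against controls 1 and 2 (adjusted p = 0.021, limma) and -0.26 against control 3 (adjusted p = 0.52).

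The clamp loader subunits were called against controls 1 and 2, by 1.49-fold (Rfc3), 1.44-fold (Rfc4) and 2.01-fold (Rfc5). Rfc5 was the only 1 of the 8 with no overlap against the 3 controls: it read 3.41, 3.39 and 4.13 and then 4.51, 4.38 and 4.33, a log2 fold change of 0.76 ± 0.23 with an adjusted p of 0.056 in limma. Of the polymerases, Pold1 (catalytic subunit of polymerase delta, which extends the lagging strand) gave 0.71 and Pole (its counterpart for the leading strand) 0.46 against controls 1 and 2, and both were called. Pola1 and Prim1, the catalytic subunits of the polymerase alpha and primase that begin each new strand, gave 0.34 and 0.43 and were not called (adjusted p = 0.11 for both, limma). Prim1 was spread over the IFN-beta arrays, at 2.91, 2.33 and 2.65. Pole and Pola1 were lower on all IFN-beta arrays than on control 3, by 0.22 and 0.39 in the mean, and neither difference passed the test.

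The genes of nucleotide supply and uracil removal split. Of 6, Dut alone rose against the 3 controls (beside 11.8% of all genes). Against controls 1 and 2, 4 rose (Dut, Ung, Rrm2 and Tyms, beside 33.1% of all genes). The probes shown for Tk1 and Rrm1 had values below 0 in all 3 comparisons. Dut, which removes dUTP and so keeps uracil out of DNA, read 1.54, 1.65 and 2.22 on the controls and 3.18, 2.73 and 2.77 with IFN-beta (chr2:125083359-125083418, mm9). The IFN-beta arrays were all above control 3. The difference of 1.08 ± 0.24 (2.12-fold) had the lowest adjusted p of the list against the 3 controls (0.018, limma), and was 1.29 against controls 1 and 2 and 0.67 against control 3 (adjusted p = 0.18). Ung, the glycosylase that cuts uracil out of DNA, read 5.85, 5.80 and 6.54 and then 7.02, 6.66 and 6.91, with no overlap. Its log2 fold change was 0.80 ± 0.24 against the 3 controls (adjusted p = 0.052, limma) and 1.04 against controls 1 and 2.

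Tk1, the thymidine kinase that salvages thymidine, lay on the other side of 0 from most of the list. It read 2.80, 2.93 and 3.57 on the controls and 2.73, 2.60 and 2.63 with IFN-beta (chr11:117676845-117676904, mm9), so all 3 IFN-beta arrays lay below every control on this probe. Among the probes shown it was the only 1 of the 34 with that order, beside 16.8% of all genes, and the only 1 below both of controls 1 and 2 (beside 22.5%). The log2 fold change was -0.45 ± 0.23 against the 3 controls (adjusted p = 0.20, limma), -0.21 against controls 1 and 2 (adjusted p = 0.17) and -0.91 against control 3 (0.53-fold, adjusted p = 0.044). Tk1 was no longer called against control 3 when IFN-beta 2 (adjusted p = 0.13) or IFN-beta 3 (adjusted p = 0.12) was left out. Its other tested probes went the same way there (-0.72 and -0.41) but not elsewhere: they gave 0.22 and 0.45 against controls 1 and 2 and -0.09 and 0.16 against the 3 controls. With the mean of all tested probes the value against controls 1 and 2 was 0.15, so the low position of Tk1 against controls 1 and 2 rests on the probe shown.

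Rrm1, the large subunit of ribonucleotide reductase, read 3.07, 3.01 and 3.58 on the controls and 3.07, 3.04 and 2.58 with IFN-beta. Only IFN-beta 3 was below controls 1 and 2, and all 3 IFN-beta arrays were below control 3 (-0.69 ± 0.27, adjusted p = 0.18, limma). Rrm2, the small subunit of the same enzyme, read 3.75, 3.75 and 4.51 and then 4.66, 4.52 and 4.46, and rose by 0.80 against controls 1 and 2 (adjusted p = 0.0033). Tyms, which makes thymidylate, rose by 0.77 there (adjusted p = 0.0067). Against control 3, Rrm2 and Tyms stood at 0.03 and 0.12.

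**Figure D4:**
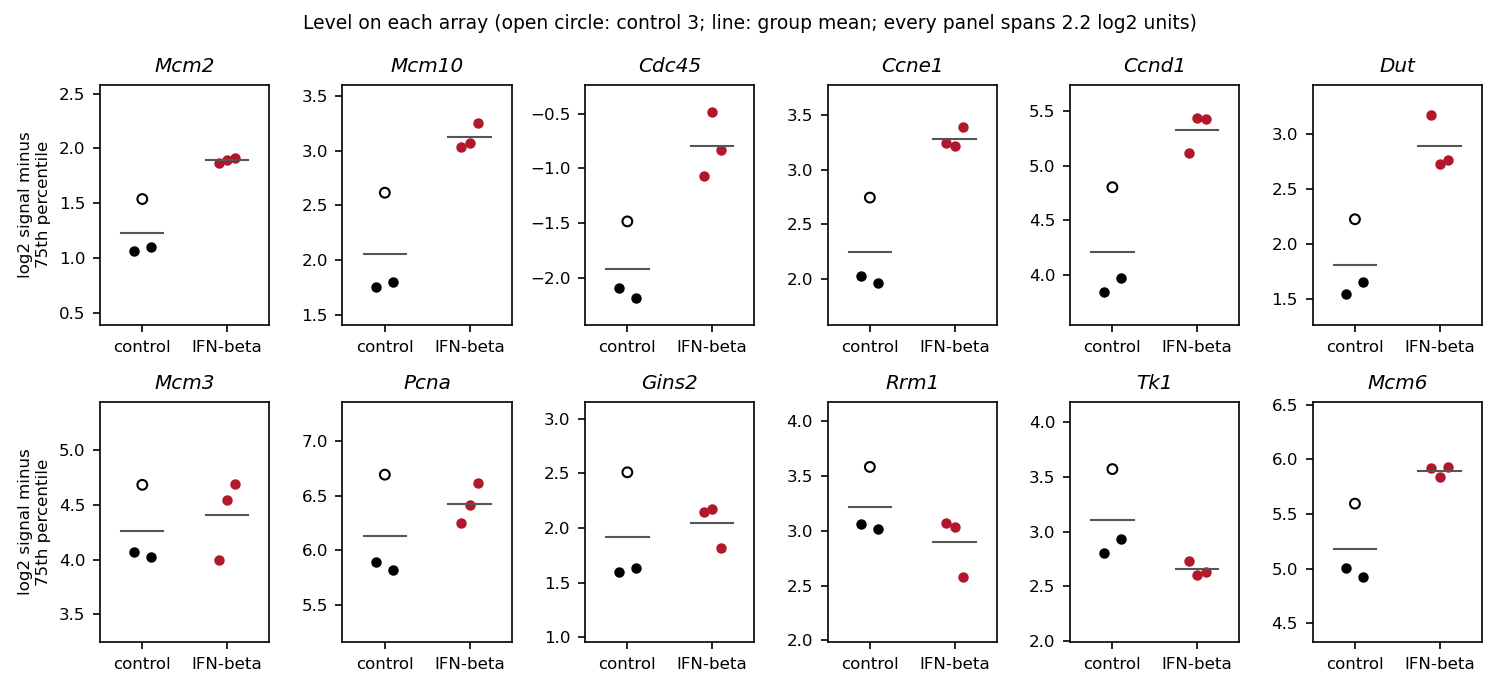
Level on each array (log2 signal minus the 75th percentile) of the 6 genes called against the 3 controls (upper row) and of 6 others (lower row), with controls in black, control 3 as an open circle, IFN-beta arrays in red and a line at each group mean. In the upper row the IFN-beta arrays lie above control 3, while in Pcna, Gins2, Rrm1 and Tk1 they lie below it.

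Of the 5 cyclins and E2F factors in the list, 2 rose against the 3 controls, 4 against controls 1 and 2 and 0 against control 3 (limma; 1 at an unadjusted p under 0.05). Of all genes, 11.8% rose against the 3 controls and 33.1% against controls 1 and 2. Ccnd1, cyclin D1, which M-CSF is known to induce, read 3.85, 3.97 and 4.80 on the controls. With IFN-beta it read 5.12, 5.43 and 5.43 (chr7:152116202-152116261, mm9). The groups did not overlap. Its log2 fold change was 1.12 ± 0.27 against the 3 controls (2.17-fold, adjusted p = 0.027, limma), 1.42 against controls 1 and 2, which was the largest of the 34 genes there (adjusted p = 0.00095), and 0.52 against control 3 (adjusted p = 0.23). Ccne1, cyclin E1, the partner of Cdk2 at the start of S phase, read 2.03, 1.97 and 2.75 and then 3.24, 3.22 and 3.39 (chr7:38882937-38882960, mm9). The groups were again apart, by 1.04 ± 0.24 (2.05-fold, adjusted p = 0.021), 1.29 (adjusted p = 0.00058) and 0.54 (adjusted p = 0.17, limma).

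Ccne2, cyclin E2, was dim and was not well above background on IFN-beta 3. It read -4.23, -4.04 and -3.41 on the controls and -3.59, -3.84 and -3.67 with IFN-beta, which gave 0.43 against controls 1 and 2 (adjusted p = 0.040, limma) and -0.29 against control 3. The activating factors E2f1 and E2f2 did not pass the test against the 3 controls. E2f1 read 1.54, 1.46 and 2.04 on the controls and 1.77, 1.88 and 1.46 with IFN-beta, and its 95% interval against the 3 controls ran from -0.47 to 0.53. E2f2 read 3.79, 3.65 and 4.43 and then 4.23, 4.21 and 4.20, so it rose against controls 1 and 2 (0.50, adjusted p = 0.013, limma) and lay below control 3 on all 3 arrays (-0.22, adjusted p = 0.53).

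The genes of chromatin assembly and maintenance methylation gave the highest group median against the 3 controls, 0.71, with 0 of 3 called and 3 of 3 at an unadjusted p under 0.05. All 3 rose against controls 1 and 2 (beside 33.1% of all genes). Uhrf1, which brings the maintenance methyltransferase to newly copied DNA, read 2.73, 2.63 and 3.38 on the controls and 3.62, 3.65 and 3.61 with IFN-beta, with no overlap. It gave 0.71 ± 0.22 against the 3 controls (adjusted p = 0.061, limma), 0.94 against controls 1 and 2 and 0.25 against control 3. Chaf1a and Chaf1b, subunits of the factor that places histones behind the fork, gave 1.10 and 0.94 against controls 1 and 2. Chaf1a varied over the IFN-beta arrays, at 1.07, 1.82 and 1.52, with control 3 at 1.11.

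The order of the arrays can be counted without a model, here on the probe shown for each gene. All 3 IFN-beta arrays lay above all 3 controls for 11 of the 34 genes (beside 23.4% of all genes), above both of controls 1 and 2 for 30 (beside 48.5%), and above control 3 for 11 (beside 28.6%). They lay below control 3 for 10 of the 34 (beside 41.5% of all genes): Pcna, Gins1, Gins2, Rrm1, Tk1, Ccne2, E2f1, E2f2, Pola1 and Pole. The 11 genes above control 3 were Mcm2, Mcm5, Mcm6, Mcm10, Cdc45, Ccne1, Ccnd1, Rfc5, Ung, Uhrf1 and Dut. They had to be the same genes as those above all 3 controls, since control 3 lay above controls 1 and 2 for all 34. Of these 11, Ccnd1 had no promoter window to search. Mcm5, Mcm6 and Uhrf1 held an E2F match in theirs, for Uhrf1 in the second window only. On the probes shown, the other 8 genes with a match (Cdc6, Cdt1, Mcm3, Mcm7, Pold1, Rfc3, E2f2 and Pola1) overlapped control 3 or lay below it. These orders change with the probe. On another tested probe, Cdc6, Mcm3 and Mcm7 lay above control 3 on all 3 IFN-beta arrays, as did Rfc4 and Tyms among genes without a match. Both other probes of Rfc5 lay below control 3, and other probes of Gins1, Gins2 and Pole overlapped it. Whether a match goes with the order was not tested.

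Further probes for the same genes served as a second readout. The 34 genes had 62 probes, 19 genes had several, and 24 of the other probes were tested. Against the 3 controls and against controls 1 and 2, 4 of the 24 had the opposite sign to the probe shown, and against control 3 this held for 7. Both other probes of Rfc5 went against the one shown (-0.21 and -0.48, where that gave 0.76 against the 3 controls), so the rise of Rfc5 rests on a single probe. The other probes of Mcm10 (0.87), Cdc45 (0.85) and Dut (0.44) had the direction of the call, while Mcm2, Ccne1 and Ccnd1 had 1 probe each. The 3 other probes of Mcm3 gave 0.46, 0.78 and 0.56, above the 0.15 of the probe shown.

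Among 53 further replication genes that are not in the list (origin recognition, other subunits, ligation, repair at the fork), 6 rose and 1 fell against the 3 controls (limma; 11.8% and 8.04% of all genes). There were 27 higher and 1 lower against controls 1 and 2, and 1 and 0 against control 3. Of all genes, 33.1% were higher and 15.1% lower against controls 1 and 2. The medians of the 53 genes were 0.24, 0.48 and -0.16. Dctd, which makes dUMP from dCMP, was the one called against control 3 as well (1.05 ± 0.20, adjusted p = 0.030). Dck, which phosphorylates deoxycytidine, and Pola2, a subunit of polymerase alpha, rose by 1.12 and 0.83 against the 3 controls, and Mcm9, a relative of the ring subunits, by 0.64. Gins3, of the GINS complex, fell by 0.69 against the 3 controls (adjusted p = 0.040). Gins1 and Gins2 gave 0.33 and 0.13 there and were not called.

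The 34 further G1/S regulators moved in both directions, with 7 called higher and 4 lower against the 3 controls (11.8% and 8.04% of all genes). There were 17 higher and 7 lower against controls 1 and 2 (33.1% and 15.1%), and 1 higher and 4 lower against control 3 (5.22% and 4.33%), where the median was -0.25. Mybl2, a transcription factor of late G1, rose by 1.36 ± 0.28 (adjusted p = 0.014), and E2f3, of the same class as E2f1 and E2f2, by 1.07 ± 0.23 (adjusted p = 0.019). Cdkn1a, an inhibitor of cyclin-dependent kinases, rose by 0.99 ± 0.21 (adjusted p = 0.017, limma). It read 2.87, 2.87 and 3.47 on the controls and 3.99, 4.02 and 4.17 with IFN-beta. Control 3 lay between the other controls and the IFN-beta arrays. Against control 3 these 3 genes gave 0.74, 0.57 and 0.59 and were not called (adjusted p = 0.10, 0.15 and 0.15, limma). Tfdp2, a partner of the E2F factors, fell by 1.39 ± 0.21 (adjusted p = 0.0045) and was also lower against control 3 (-1.65, adjusted p = 0.021, limma).

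Genes of G2 and M phase were taken as a further list of 20. None was called against the 3 controls (limma; 0 of 20 also at an unadjusted p under 0.05), 9 rose against controls 1 and 2 (beside 33.1% of all genes), and against control 3 all 20 values were below 0 (beside 11382 of 19500 genes), with a median of -0.51 and 2 called lower. Those were Mki67, a marker of dividing cells (-0.95, adjusted p = 0.037), and Cenpf, a kinetochore protein (-1.17, adjusted p = 0.024). Cenpf read 2.18, 2.14 and 3.18 on the controls and 2.14, 1.97 and 1.93 with IFN-beta. Aurka and Cdk1, kinases of mitosis, gave -0.12 and -0.24 against control 3 and were not called. The difference between the G2/M genes and the 34 replication genes was not tested.

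**Figure D5:**
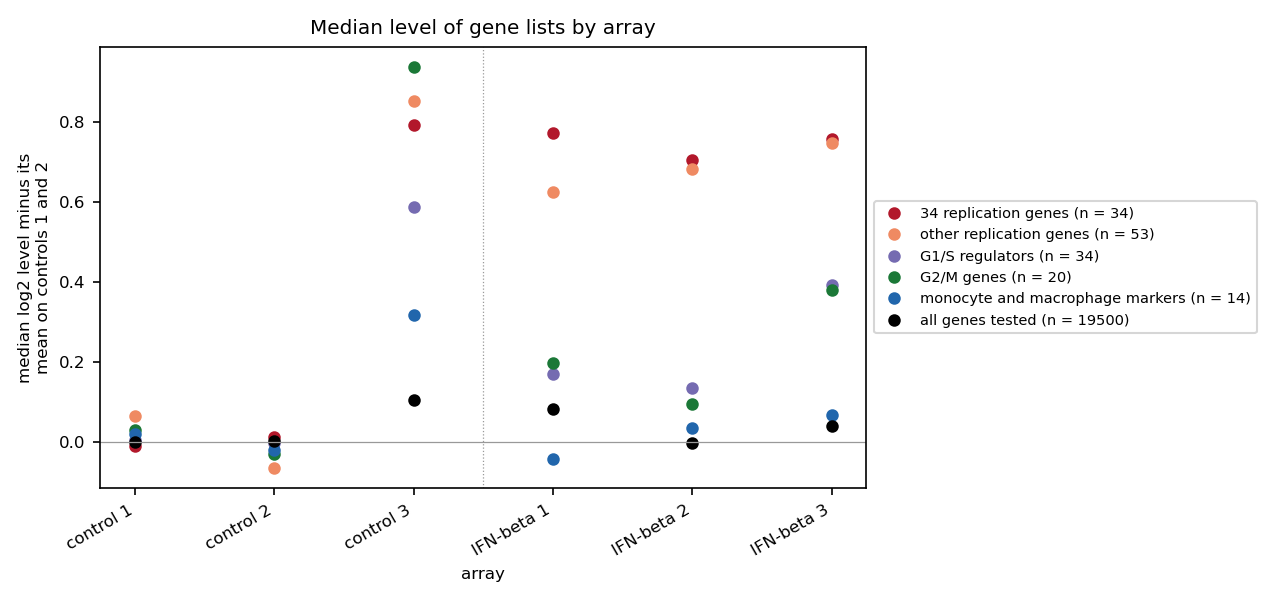
Median level of each gene list on each array, as the difference from its mean on controls 1 and 2 (log2), for the 34 replication genes, 53 other replication genes, 34 G1/S regulators, 20 G2/M genes, 14 monocyte and macrophage markers and all 19500 genes tested. Both replication lists and the G2/M genes have their highest median on control 3, and their IFN-beta arrays lie between it and controls 1 and 2.

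The treatment itself was plain on the arrays. All 10 interferon response genes rose in each comparison, with medians of 4.10, 4.44 and 3.58, so controls 1, 2 and 3 all differed from the IFN-beta arrays in that respect. Ifit3 rose by 4.47 ± 0.18, Mx1 by 4.57 ± 0.26, Ifi44 by 5.66 ± 0.19 and Rsad2 by 4.20 ± 0.25 against the 3 controls (adjusted p from 1.3e-05 to 8.5e-05, limma).

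Markers of other blood and tissue cells moved with the same contrasts, and their part in the replication results was not tested. The 11 neutrophil lineage markers, all well above background everywhere, had a summed level of 8.17 to 8.70 on the controls and 9.27 to 9.58 with IFN-beta, and 8 of 11 rose. The 8 stem and progenitor markers went from 4.57 to 4.92 up to 5.36 to 5.55. Of the 7 tested, 4 rose and 0 fell against the 3 controls (beside 11.8% and 8.04% of all genes). There were 4 higher and 1 lower against controls 1 and 2 (beside 33.1% and 15.1%). Values against control 3 ran from -1.48 to 2.61, with 5 above 0 and 2 below. The 6 basophil and mast cell markers went from 2.43 to 3.23 up to 5.80 to 6.36, with 5 of 6 called higher, and 5 of 6 were also called higher against control 3. Mcpt8, a basophil protease, read 1.14, 1.09 and 1.93 on the controls and 5.15, 5.17 and 4.84 with IFN-beta. The fibroblast list had 9 of 20 genes tested. Sparc, a matrix protein, read 7.03, 7.19 and -3.00 on the controls and -0.82, -1.47 and -0.79 with IFN-beta. All 9 fell against controls 1 and 2, and 3 of the 9 rose against control 3. The 8 endothelial markers summed to 4.48 and 4.18 on controls 1 and 2, 2.34 on control 3 and 3.64 to 3.72 with IFN-beta. Of the 5 tested, 4 were lower and 1 higher against controls 1 and 2 (limma), and the median against control 3 was 0.61. The higher one was Kdr, named after its values were seen. It read 1.30, 1.20 and 1.89 on the controls and 3.45, 3.35 and 3.40 with IFN-beta, close to the sum of the list there. The erythroid list had a summed level of 7.07 and 6.98 on controls 1 and 2, -0.43 on control 3 and 0.73 to 1.25 with IFN-beta, and Hba-a1, a haemoglobin chain, was its only gene tested. Summed monocyte and macrophage markers were 9.79 and 9.75 on controls 1 and 2, 10.3 on control 3 and 10.2 on the IFN-beta arrays. Single markers of this list moved both ways beneath that sum. Of the 14, 2 were called higher and 4 lower against the 3 controls (limma, beside 11.8% and 8.04% of all genes). Against controls 1 and 2 these counts were 7 and 4 (beside 33.1% and 15.1%).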

How the data were processed

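Per the file headers, the authors scanned 6 single-colour arrays and extracted an intensity per spot with Agilent Feature Extraction 12.0.3.1, detrended and with a surrogate for dim spots, and with no normalization between arrays. The submitters' processing notes also name limma without its role. A value table, deposited with them, gives the arrays on a log2 scale, close to equal quantiles with medians of 4.82 to 4.83. Its normalization is not given in the sources used here, and it served as an alternative.

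Of 59305 non-control spots (56605 probes), 7 probes were left out as outliers and spots of a probe were averaged. Levels are log2 of the processed signal minus the array's 75th percentile. A probe was tested where it exceeded background clearly on all arrays of 1 group or both (29794 probes), and each gene was represented by its brightest probe (19500 genes). A RefSeq table (GRCm38.p6) gave the symbols of 32989 probes by accession and 10223 by symbol, and the other 13386 go by the file's own name. Positions of probes refer to mm9, as in the files, and were not set against gene models.

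IFN-beta was compared with the 3 controls, controls 1 and 2, and control 3 in separate fits of limma 3.58.1 (R 4.3.3, data.table in version 1.17.8; lmFit, eBayes) with Benjamini-Hochberg adjustment over all genes tested and a threshold of 0.05. The fits were tested on simulated data. No spot was saturated. Precision is limited by having 3 arrays a group. The members, lists and comparisons were chosen with earlier results of these data known. Every member is named, with up to 4 genes per further list by lowest p against the 3 controls, the called gene of lowest p in the lesser direction, and the 2 genes of highest mean level in each marker list whose summed level differed over 2-fold between the groups (S100a8, Camp, Mcpt8, Prss34, Fstl1, Sparc, Hba-a1 and Epor, of which the text shows Mcpt8, Sparc and Hba-a1). Figures were drawn with matplotlib 3.10.9. Alternatives were other normalizations, spike-in scaling, normexp (offset 50), the deposited table, other filters and probe rules, trend and robust eBayes, array weights, blocks for slide and replicate number, each array left out, and, added after seeing the data, centring on the median and averaging controls 1 and 2.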

Additional observations from a re-analysis of the deposited data

How the results depend on the processing

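Against the 3 controls, the count of members called higher (6) was 10 with quantile normalization, the deposited table or centring on the median of genes above background, 12 with normexp, with probes well above background on all arrays or with trend and robust eBayes, 29 with array weights, and 0 with spike-in scaling, without a filter on dim probes, with the slide as a block, within slide 1 or with controls 1 and 2 averaged. With each array left out it ran from 0 to 27, and the count of all genes called (3868) from 1828 to 9397. That count was 12745 with array weights, 1693 without a filter, 1039 with the slide as a block, 369 within slide 1 and 1993 with controls 1 and 2 averaged. The medians of the members stayed above 0 throughout, from 0.20 to 0.76. Single values changed sign with the scaling for Mcm3, Pcna, Gins2, Ccne2, E2f1, E2f2, Pola1, Pole and Prim1, none of them called under any scaling.

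Against controls 1 and 2, members called higher (27) were 13 with spike-in scaling, 16 with both controls averaged and 16 to 27 with each array left out, and all genes called (9397) were 6155, 4236 and 4036 to 10472, or 18578 without a filter. Tk1 was called lower, as 1 member, with quantile normalization, normexp or the deposited table. The median of the members (0.75) was 0.54 with quantile normalization, 0.60 with normexp, 0.47 with spike-in scaling, 0.58 with the deposited table, 0.71 with the slide as a block or within slide 1, and 0.64 with centring on the median. Of the 34 values against controls 1 and 2, E2f1 alone changed sign with the scaling, and it was never called.

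Against control 3, the 1 member called lower (Tk1) was not called (0 members) with quantile normalization, the deposited table, no filter, the mean of all probes, the slide as a block or centring on the median, and Tk1 and Rrm1 (2 members) were called with spike-in scaling. Leaving out an IFN-beta array gave 0 to 1 members lower and 910 to 3389 genes in all (1862). All genes called were 3700 with spike-in scaling, 1073 without a filter and 2860 with trend and robust eBayes. The members' median (0.04) was 0.088 with quantile normalization, -0.0088 with normexp, -0.38 with spike-in scaling, 0.077 with the deposited table, -0.015 with the slide as a block and 0.11 with centring on the median, so its sign depends on the scaling. Many single values changed sign too. Of the genes counted as above control 3, Mcm2 (-0.06 to 0.43), Mcm5, Mcm6, Rfc5, Ung and Uhrf1 did so. Mcm10, Cdc45, Ccne1, Ccnd1 and Dut stayed above 0.

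Spike-in scaling moved the median of all genes against the 3 controls from 0.10 to -0.22. The members' distance from that median cannot change under it, since every gene of an array shifts alike. It moved the share of calls that were higher from 59.5% to 25.8%, from 68.7% to 37.5% against controls 1 and 2, and from 54.7% to 19.5% against control 3. Normexp moved the first of these to 69.9%. The cause of these changes was not tested.

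Whether the replicate numbers pair the arrays was not settled. Deviations from the group means correlated at only 0.07, 0.02 and 0.07 between arrays of the same number. Each control nevertheless correlated best with its own number. With a replicate block, 5 members and 3264 genes were called against the 3 controls and 24 and 7461 against controls 1 and 2. No such fit could be made against control 3, a lone array.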
